A study of Mus musculus with 24 samples.

Results

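The genes of the cytoplasmic ribosomal proteins were described in the left ventricle of mice infused with angiotensin II (ANG II) and of control mice. Members were chosen by symbol alone, as the Rps and Rpl genes with Rpsa, Rplp0, Rplp1, Rplp2 and Fau, leaving out entries named as pseudogenes and the Rps6k kinases. This gave 83 of the 14912 genes in the table, of which 33 belonged to the small subunit, 47 to the large subunit and 3 to the stalk of the large subunit. The 12 mice of the ANG II group carried an osmotic mini-pump under the skin that released ANG II (1500 ng/kg/min) over 7 days, and the pumps of the 12 control mice released saline. All mice were wild type and, by the study's methods, male C57BL/6J, and every heart was flushed with saline before the left ventricle was taken. Each sample was 1 ventricle, so the values average over all cell types of the tissue, and fewer cells of a type cannot be told apart from less RNA per cell.

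Ribosomal proteins assemble with ribosomal RNA into the small subunit, which reads the messenger RNA, and the large subunit, which joins amino acids. Their genes are among the most strongly transcribed of most cells, and many of their messenger RNAs begin with a run of pyrimidines, the terminal oligopyrimidine (TOP) motif, through which mTOR signaling controls their translation. Enlargement of the heart by pressure or hormones is known to go with more ribosomes and more protein synthesis in cardiomyocytes. Rpl3 lies close to the peptidyl transferase centre of the large subunit, and its paralog Rpl3l is expressed mainly in heart and skeletal muscle.

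FPKM counts the fragments of a gene relative to transcript length and to the sequencing depth. What was deposited was FPKM that had been shifted and scaled gene by gene in 4 sets of samples, and 2741 values (0.766%) were negative. In each group the first set held samples 1 to 3, the next samples 4 to 6, then samples 7 to 9, and the last samples 10 to 12. The values of a sample summed to between 460720 and 515192 in the ANG II group and between 482603 and 567972 in controls, and the number of fragments behind a value is not known. The tissue label was checked with 12 cardiomyocyte genes, whose summed FPKM was at least 48518 in every sample. Some samples stood apart. Negative values were set to 0 here, so a 0 may stand for a negative adjusted value. The summed FPKM of 3 atrial genes (Myl7, Sln and Myl4) then ranged from 0 to 3153 in the control group and from 0 to 2303 in the ANG II group. The collagen gene Col1a1 was at 0 in at least 1 control sample after this step. Its group difference was 8.77 on the log2 scale in samples 4 to 6 against 0.51, 1.24 and 0.56 in samples 1 to 3, 7 to 9 and 10 to 12. How far the adjustment in the sets made this difference was not tested. Counts of members are therefore also given without samples 4 to 6. The labels do not say whether the samples came from separate litters or days.

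Rpl3 and Rpl3l moved in opposite directions. Rpl3 had 94.3, 112 and 161 FPKM as the lowest, median and highest values of the control group, and 134, 188 and 257 FPKM in the ANG II group. Rpl3l had 162, 242 and 284 FPKM in the control group and 83.7, 128 and 171 FPKM in the ANG II group. The groups overlapped for each gene, but all 12 ANG II samples were above the control median of Rpl3 and all 12 were below that of Rpl3l. The mean of Rpl3 was 190 ± 37.8 FPKM in the ANG II group and 121 ± 22.1 in the control group (SD, n = 12 each), a log2 fold change of 0.64 with a standard error of 0.10 (limma on log2(FPKM + 1), adjusted p = 7.3e-05). The mean of Rpl3l was 128 ± 28.3 against 243 ± 31.2 FPKM, a log2 fold change of -0.94 with a standard error of 0.11 (limma, adjusted p = 1.64e-06). These were the 2 members that met both criteria used for a differentially expressed gene (DEG), an adjusted p under 0.05 and a log2 fold change over 0.5 in size, which 5.92% of all 14026 tested genes met, 4.52% as higher and 1.4% as lower.

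**Figure D1:**
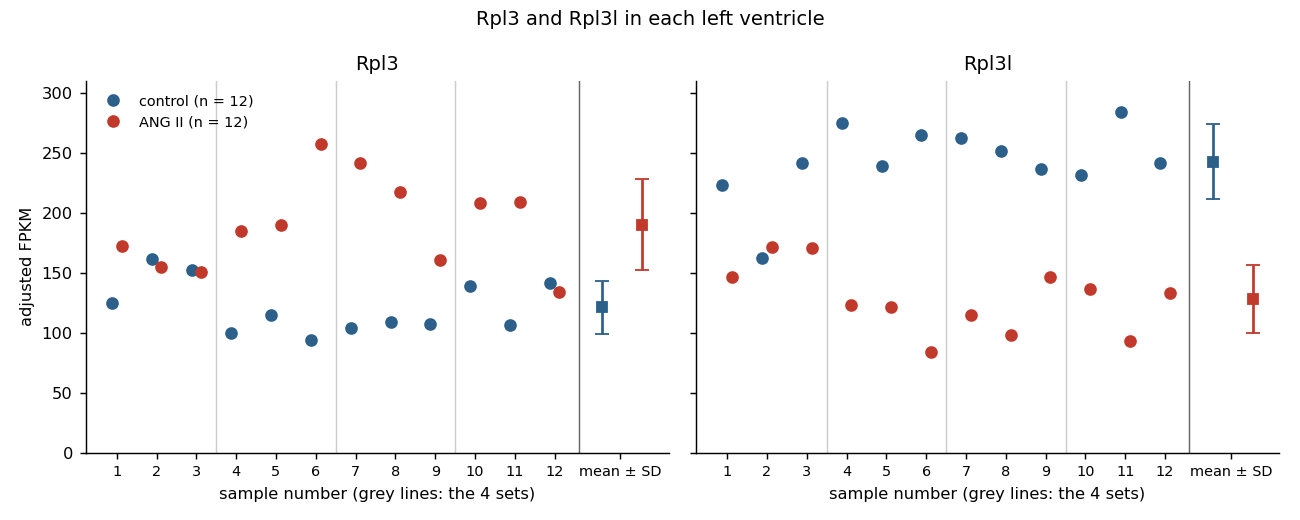
Adjusted FPKM (y axis) of Rpl3 (left) and Rpl3l (right) in each of the 12 control and 12 ANG II left ventricles by sample number (x axis), with the mean and SD of each group at the right and grey lines between the 4 sets. Rpl3 lies higher and Rpl3l lower in the ANG II samples, and in samples 1 to 3 the groups lie closest.

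Rpl3 (ENSMUSG00000060036.14) lies at chr15:80077791-80091868 on the minus strand and Rpl3l (ENSMUSG00000002500.15) at chr17:24727820-24736143 on the plus strand (GENCODE vM21, GRCm38). Their coding sequences had 1209 and 1221 bases and were identical at 74.1% of 1206 aligned positions, and the longest stretch of identical bases was 22. The first 120 coding bases of both transcripts are shown because they carry enough differences to tell the messenger RNAs apart. Capitals mark the 31 positions at which they differ.
Rpl3: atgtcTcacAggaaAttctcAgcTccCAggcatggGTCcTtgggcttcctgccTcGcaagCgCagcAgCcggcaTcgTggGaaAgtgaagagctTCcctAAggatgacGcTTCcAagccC
Rpl3l: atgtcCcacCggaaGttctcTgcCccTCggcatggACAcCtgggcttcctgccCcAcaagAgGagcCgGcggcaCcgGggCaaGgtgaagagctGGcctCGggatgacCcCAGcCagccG
Both were read from the transcripts Rpl3-201 and Rpl3l-202, which have 10 exons each.

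A factor common to all genes of a sample cancels in the share of Rpl3 within the pair, but the gene-by-gene adjustment in the sets does not. The shares and ratios given here are those of the adjusted values. Rpl3 made up 26.3%, 31.8% and 49.8% of the FPKM of the pair as the lowest, median and highest values of the control group, and 46.9%, 60.3% and 75.4% in the ANG II group. Control sample 2, at 49.8%, was the control sample above the lowest ANG II samples, and all other control samples were at 38.7% or less. The mean share was 59.5% ± 9.44 in the ANG II group and 33.4% ± 6.80 in the control group (SD, n = 12 each). The log2 ratio of Rpl3 to Rpl3l differed by 1.58 between the groups (two-sided permutation test of 100000 resamples, p = 2e-05, the smallest they can give). Permuting labels within the 4 sets gave p = 3.75e-05 (exact, 160000 labelings). The summed FPKM of the pair was 318 ± 23.1 in the ANG II group and 364 ± 20.3 in the control group.

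Within each group, samples with more Rpl3 had less Rpl3l. Across the 12 ANG II samples Pearson's r was -0.788 (permutation p = 0.00272) and Spearman's rho -0.818 (permutation p = 0.0015). Across the 12 control samples r was -0.737 (permutation p = 0.0024) and rho -0.734 (permutation p = 0.00856). After Benjamini-Hochberg adjustment over the 2 relations the values for r were both 0.00272 and those for rho were 0.003 and 0.00856. Leaving out the 2 samples whose Rpl3 lay farthest from its median, r was -0.824 and -0.695, and with the mean of each set removed it was -0.721 and -0.656 in the ANG II and control groups. Both genes were read in the same libraries.

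**Figure D2:**
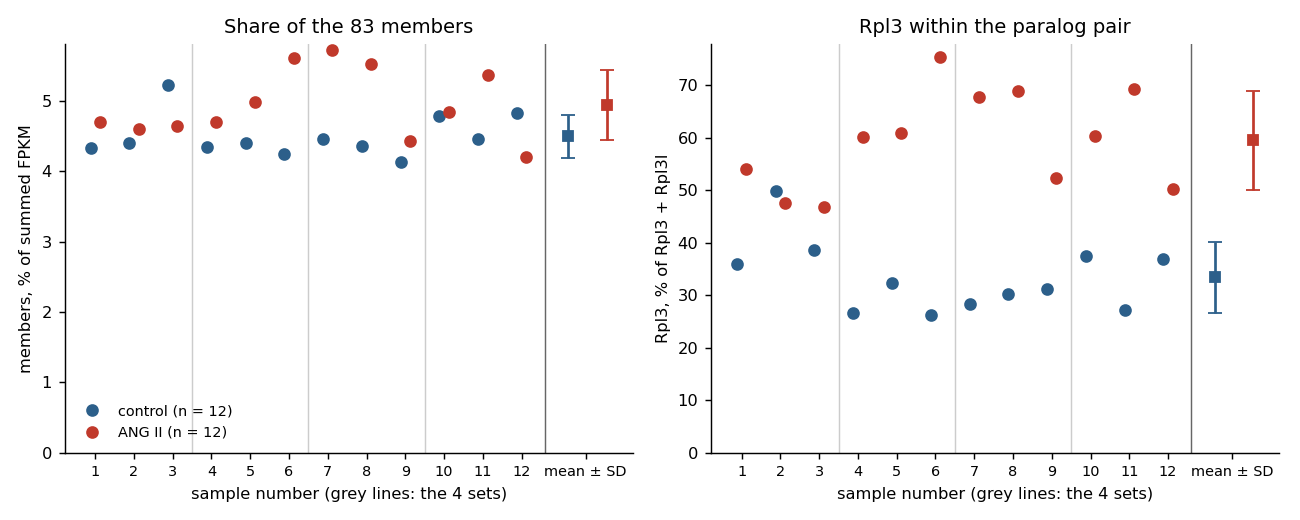
Share of the summed FPKM in the 83 members (left, percent) and share of Rpl3 in the summed FPKM of Rpl3 and Rpl3l (right, percent) by sample number, with group means and SD at the right of each panel (12 control and 12 ANG II samples). In the right panel control sample 2, at 49.8%, is the control sample that lies within the range of the ANG II group.

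The pair differed in size between the sets. The log2 ratio of Rpl3 to Rpl3l was higher in the ANG II samples by 0.47 in samples 1 to 3, by 2.28 in samples 4 to 6, by 2.00 in samples 7 to 9 and by 1.56 in samples 10 to 12. The group difference of Rpl3 on the log2(FPKM + 1) scale was 0.13, 1.01, 0.93 and 0.49 in these sets, and that of Rpl3l was -0.34, -1.26, -1.08 and -1.07. Without samples 4 to 6 the log2 fold change was 0.52 for Rpl3 (limma, adjusted p = 0.00441) and -0.83 for Rpl3l (adjusted p = 0.000182). An F test of whether the group effect differs between the sets, added after the data were seen, gave an adjusted p of 0.0642 for Rpl3 and 0.0707 for Rpl3l (limma over all tested genes). This test called 0 of the 83 members, with a smallest adjusted p of 0.0613 for Rps6, against 7.49% of all genes, and 7 members had an unadjusted p under 0.05. It was run on values already scaled and shifted in the sets, so it cannot show that the effect was the same in all sets.

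For 75 members the differences within the sets before the adjustment could be recovered from the spacing of the values. Before it, the mean of Rpl3 in the ANG II samples was lower by -10.0 FPKM in samples 1 to 3 and higher by 110 in samples 4 to 6, by 92.4 in samples 7 to 9 and by 55.8 in samples 10 to 12. In the deposited values these differences were 13.1, 108, 99.9 and 55.1 FPKM, so the direction in samples 1 to 3 was turned by the adjustment. Rpl3l was lower in all 4 sets before the adjustment, by differences of -16.2, -153, -119 and -128 FPKM. Of the 75 members, 68 had the same direction of the mean difference before and after, among them all 15 called members that were recovered.

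The other members changed less. Of the 83, 12 were higher in the ANG II group (14.5%) and 4 were lower (4.82%) at an adjusted p under 0.05, while 20.9% of all tested genes were called higher and 12.6% lower. The share of members called was thus below that of all genes in both directions with the samples as deposited. The median log2 fold change was 0.07 over the members and 0.05 over all tested genes, 64 members had a positive value (77.1%, against 63.8% of all genes), and 69 members changed by less than 0.2. Without samples 7 to 9, 46 members had a positive value (55.4%, against 67.1% of all genes), and with median-ratio scaling 49 had one (59.0%, against 55.3%). No member had groups that did not overlap, but the share of all genes with such groups was not computed, so this count cannot be weighed. The split of higher and lower calls moved with the scaling of the samples. It went from 12 and 4 as deposited to 9 and 5 with median-ratio scaling and 26 and 4 with quantile normalization. With every sample scaled to the same sum it was 35 and 3. The shares of all genes in these 3 scalings were 17.1%, 13.7% and 30.6% called higher and 15.9%, 20.8% and 8.54% called lower. Without samples 4 to 6 the split was 4 and 2, with 8.40% of all genes called higher and 11.7% lower. Without samples 7 to 9 it was 5 and 3, with 17.8% called higher and 9.29% lower. Without samples 1 to 3 it was 21 and 3. There 25.3% of the members and 19.2% of all genes were called higher, and 3.61% and 10.5% were called lower.

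**Figure D3:**
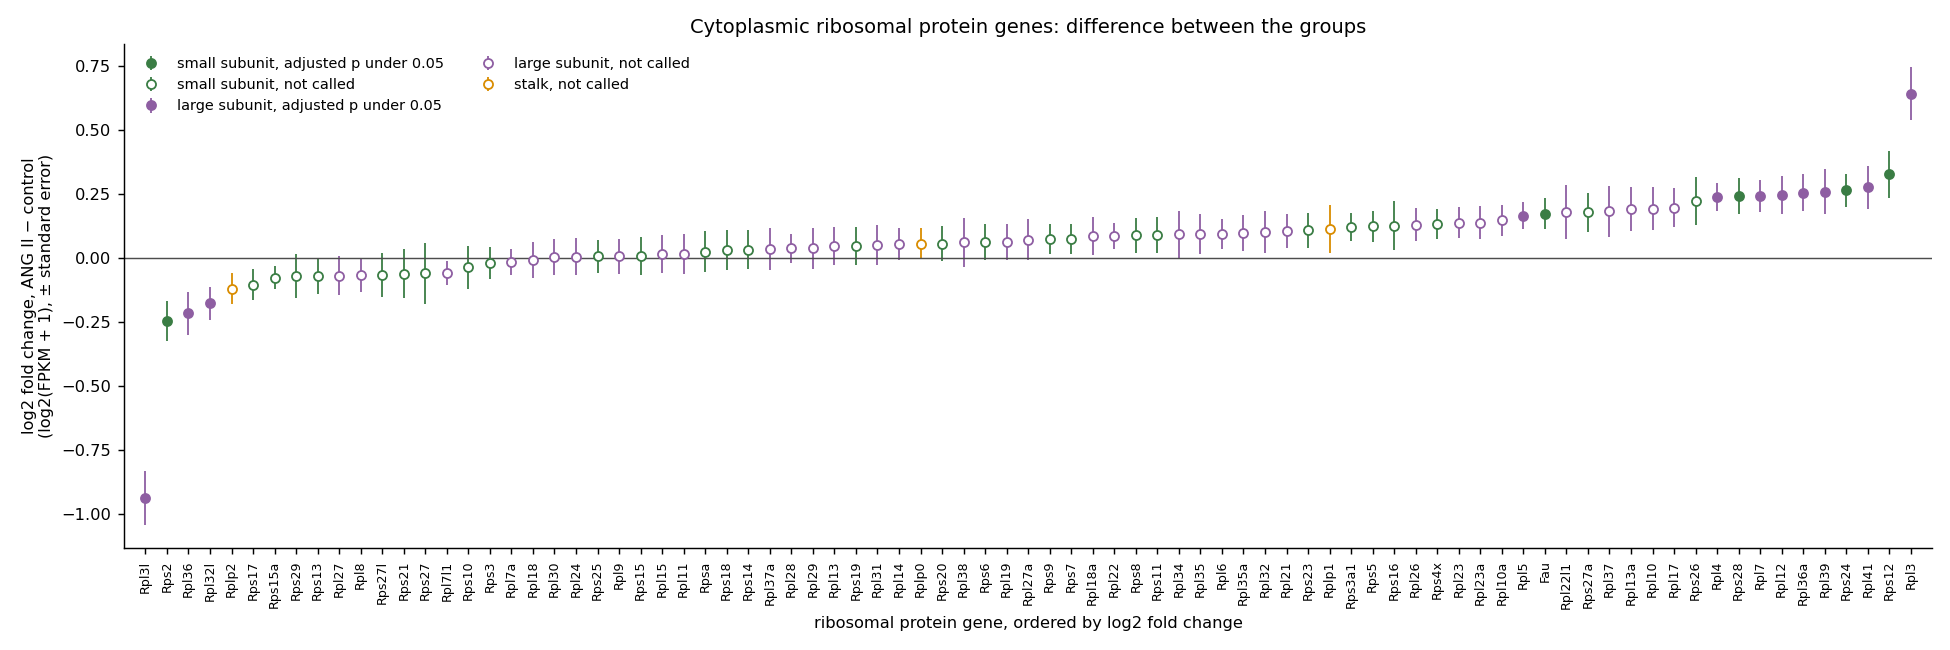
Log2 fold change of each of the 83 members (ANG II minus control on the log2(FPKM + 1) scale, y axis) with its standard error, ordered along the x axis, with filled points for members called at an adjusted p under 0.05 and colours for the subunits (n = 12 per group). Rpl3 at 0.64 and Rpl3l at -0.94 lie apart from the other members, of which the highest is Rps12 at 0.33 and the lowest Rps2 at -0.25.

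Of the 47 large subunit genes, 8 were called higher and 3 lower. Both shares were below those of all tested genes, 20.9% higher and 12.6% lower. Rpl4, which lines the exit tunnel of the growing protein, had 275, 329 and 374 FPKM as the lowest, median and highest control values and 336, 375 and 449 in the ANG II group. All 12 ANG II samples were above the control median, and the log2 fold change was 0.24 with a standard error of 0.05 (limma, adjusted p = 0.00191). Rpl7 had 233, 279 and 350 FPKM in the control group and 288, 325 and 409 in the ANG II group. Its log2 fold change was 0.24 with a standard error of 0.06 (limma, adjusted p = 0.00475), again with 12 of 12 ANG II samples above the control median. Rpl3, Rpl3l, Rpl4 and Rpl7 kept their calls under each of the 14 other settings of the test.

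Rpl41, the smallest ribosomal protein, had 426, 478 and 686 FPKM in the control group and 430, 614 and 766 in the ANG II group, a log2 fold change of 0.27 (limma, adjusted p = 0.0143). The ranges overlapped over most of their width, and 11 of 12 ANG II samples were above the control median. Rpl39, a small protein of the exit tunnel, rose by a log2 fold change of 0.26 (adjusted p = 0.0272), from a mean of 88.4 to 107 FPKM. Rpl36a, near the exit site of transfer RNA, rose by 0.25 (adjusted p = 0.0087), from 129 to 155 FPKM. Rpl12, at the base of the stalk, rose by 0.24 (adjusted p = 0.0134), and Rpl5, which carries a small ribosomal RNA into the large subunit together with Rpl11, rose by 0.16 (adjusted p = 0.0185). Rpl11 itself was not called, with means of 309 ± 47.4 FPKM in the ANG II group and 305 ± 39.3 in the control group (SD, n = 12 each). The calls of Rpl41, Rpl39, Rpl36a, Rpl12 and Rpl5 were each lost without samples 4 to 6, with adjusted p-values of up to 0.275 under single settings.

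Rpl36 and Rpl32l were the other large subunit genes called lower. Rpl36 had 204, 263 and 339 FPKM in the control group and 154, 231 and 258 in the ANG II group, all 12 ANG II samples being below the control median. Its log2 fold change was -0.22 with a standard error of 0.08 (limma, adjusted p = 0.0479), and 6 of 14 other settings kept the call. Rpl32l had a mean of 0.231 FPKM over all samples, the lowest of the members, and held all 4 negative values found among them. GENCODE vM21 lists it as a processed pseudogene, so reads from Rpl32 could be counted there. Its log2 fold change was -0.18 (adjusted p = 0.0359), a call kept under 7 of 13 other settings, while Rpl32 had means of 352 ± 53.9 and 328 ± 46.6 FPKM in the ANG II and control groups and was not called (adjusted p = 0.356).

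Of the 33 small subunit genes, 4 were called higher and 1 lower, again below the shares of all tested genes (20.9% and 12.6%). Rps12 had 222, 271 and 375 FPKM in the control group and 269, 336 and 483 in the ANG II group, with 11 of 12 ANG II samples above the control median. Its log2 fold change of 0.33 (standard error 0.09, limma, adjusted p = 0.00866) was the largest after Rpl3. Rps24, a gene mutated in the inherited anemia of Diamond and Blackfan, had 393, 440 and 580 FPKM in the control group and 457, 526 and 665 in the ANG II group. All 12 ANG II samples were above the control median, and the log2 fold change was 0.26 (standard error 0.07, adjusted p = 0.00363). Rps28, near the exit of the messenger RNA, rose by 0.24 (adjusted p = 0.0112), from 174 to 206 FPKM. The calls of Rps12 and Rps28 were lost without samples 4 to 6 and without samples 7 to 9, and that of Rps24 without samples 10 to 12.

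Rps2, at the entry of the messenger RNA, had the highest mean of all members and was the small subunit gene called lower. It had 879, 1030 and 1287 FPKM in the control group and 649, 890 and 1185 in the ANG II group, and 11 of 12 ANG II samples were below the control median. The log2 fold change was -0.25 with a standard error of 0.08 (limma, adjusted p = 0.0167). The difference was positive, at 0.06, in samples 7 to 9. It was -0.20, -0.36 and -0.48 in samples 1 to 3, 4 to 6 and 10 to 12. The call was kept under 10 of 14 other settings. It was lost without samples 4 to 6, without samples 10 to 12, with quantile normalization and with the replicate number as a block (limma, adjusted p up to 0.41). Of the 83 members, 60 have a named pseudogene in the annotation, up to 24 of them, and 11 are named for Rps2 and 24 for Rps12, so the way reads were shared among copies could move these values.

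The stalk, which recruits the elongation factors, is built from Rplp0, Rplp1 and Rplp2. Rplp0 had means of 709 ± 71.1 FPKM in the ANG II group and 683 ± 67.2 in the control group (log2 fold change 0.05, adjusted p = 0.501). Rplp1 had 622 ± 104 against 575 ± 96.6 FPKM (0.11, adjusted p = 0.362), and Rplp2 had 359 ± 43.1 against 390 ± 33.0 FPKM (-0.12, adjusted p = 0.119). None of the stalk genes was called.

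Some ribosomal proteins are made as fusions with ubiquitin or a protein like it, which is then cut off. Fau, which encodes Rps30 behind a ubiquitin-like protein, had 198, 224 and 277 FPKM in the control group and 217, 249 and 312 in the ANG II group, a log2 fold change of 0.17 (limma, adjusted p = 0.0342). Of 14 other settings, 8 kept this call, and it was lost without samples 4 to 6. Rps27a, a ubiquitin fusion, had means of 167 ± 26.8 FPKM in the ANG II group and 147 ± 17.7 in the control group (log2 fold change 0.18, adjusted p = 0.073).

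Beside Rpl3 and Rpl3l, the paralog pairs did not show opposite calls. Rpl7 rose, as given above, while Rpl7l1 had 24.0 ± 2.06 FPKM in the ANG II group and 25.1 ± 1.70 in the control group (log2 fold change -0.06, adjusted p = 0.324). Rpl22 had 69.7 ± 6.81 against 65.6 ± 5.37 FPKM (0.08, adjusted p = 0.198), and its paralog Rpl22l1 12.4 ± 2.80 against 10.7 ± 1.83 FPKM (0.18, adjusted p = 0.192). Rps27 and Rps27l had log2 fold changes of -0.06 and -0.07 with standard errors of 0.12 and 0.09. Rpl36a rose, and Rpl36al, which is not a member by symbol, had 68.8 ± 10.1 against 64.1 ± 7.97 FPKM (log2 fold change 0.10, adjusted p = 0.313). Rpl10 and Rps4x had log2 fold changes of 0.19 and 0.13 with adjusted p-values of 0.0832 and 0.0805.

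On the scale of FPKM, which is per length, 74 members had a mean over 100 and the median member had 282 FPKM. Rps2 at 962, Rplp0 at 696 and Rps15 at 626 FPKM were highest, and Rpl32l at 0.231, Rpl22l1 at 11.6 and Rpl7l1 at 24.5 FPKM were lowest. In the control group Rpl3l, with a mean of 243 FPKM, was above Rpl3, with 121 FPKM, and in the ANG II group the order of the means was turned.

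The members together took 4.13%, 4.40% and 5.24% of the summed FPKM as the lowest, median and highest values of the control group, and 4.20%, 4.77% and 5.73% in the ANG II group. The groups overlapped over most of this range, with means of 4.95% ± 0.50 in the ANG II group and 4.50% ± 0.306 in the control group (SD, n = 12 each). Within the summed FPKM of the members, the small subunit took 41.6% ± 0.240 in the ANG II group and 42.2% ± 0.232 in the control group, with ranges of 41.1% to 42.0% and 41.8% to 42.6%.

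The direction of most members was not the same in all sets. In samples 1 to 3, 16 of 83 members were higher in the ANG II samples (median difference -0.08, all genes -0.01), and in samples 10 to 12, 27 were higher (median -0.09, all genes 0.03). In samples 4 to 6, 71 were higher (median 0.18, all genes 0.18), and in samples 7 to 9, 75 were higher (median 0.25, all genes -0.02). Before the adjustment fewer were higher in samples 1 to 3, at 2 of the 75 recovered members against 10 of the same 75 after it, in means of FPKM. In the deposited values on the log2 scale, 11 of the 16 called members had the same sign in all 4 sets, and Rpl32l, Rps2, Rps12, Rps28 and Fau did not. Before the adjustment, in means of FPKM, 3 of these 11, Rpl3l, Rpl36 and Rpl4, had the same sign in all 4 sets. The other 8, Rpl3 among them, were lower in samples 1 to 3 and higher in the other sets. Of these, Rpl12 and Rpl41 were lower in samples 1 to 3 in deposited means of FPKM too, by differences of -1.19 and -3.94. For them the change of scale alone turned the sign.

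**Figure D4:**
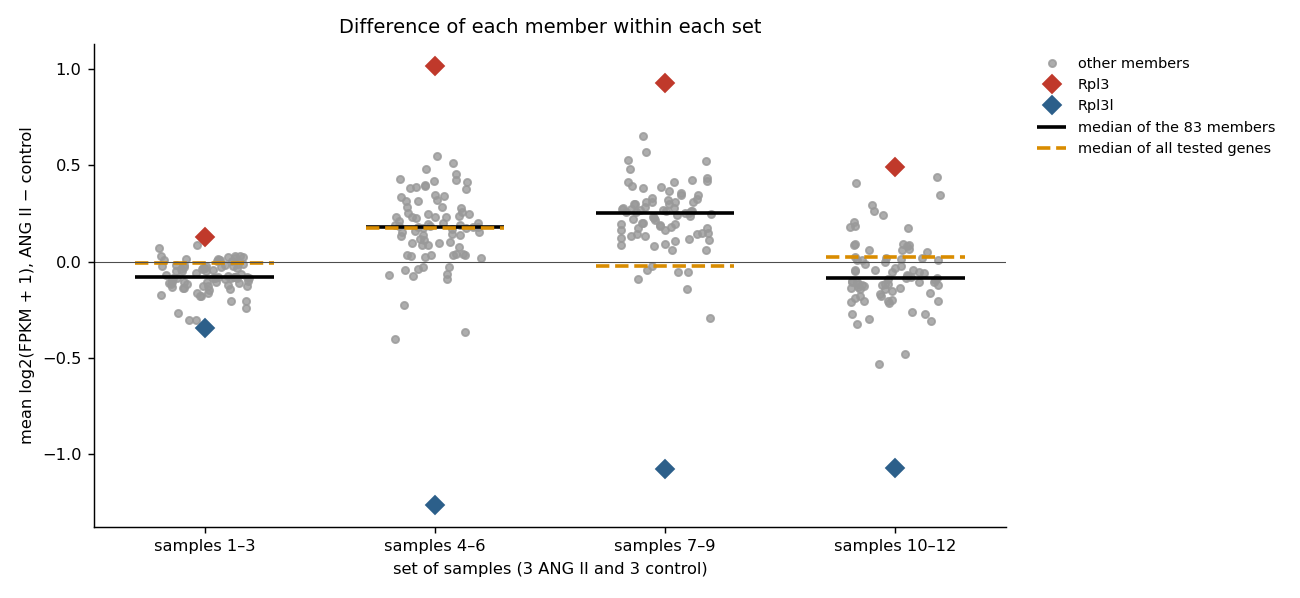
Difference of the mean log2(FPKM + 1) between the 3 ANG II and 3 control samples of each set (y axis) for each of the 83 members (points), with Rpl3 and Rpl3l as diamonds, the median of the members as a black line and that of all tested genes as a dashed line. In these adjusted values Rpl3 lies above and Rpl3l below 0 in every set (before the adjustment Rpl3 was lower in samples 1 to 3), while the median of the members is 0.18 and 0.25 in samples 4 to 6 and 7 to 9 and -0.08 and -0.09 in samples 1 to 3 and 10 to 12.

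The sequence around the annotated start was examined for the 63 members with an entry in the RefSeq promoter table (GRCm38.p6), which holds 250 bases before and 50 after each start. A run of 8 or more C or T within 15 bases of the start was found in 29 of the 63 members (46.0%) and in 13.9% of the 27025 genes of the table. The 30 bases around the start are shown for called members with and without such a run and for Rpl3l and Rpl22l1, the muscle-specific and the weakly expressed paralogs. Capitals mark the longest run of C or T inside these 30 bases, and the start is the 16th base. Runs were cut at the edges of the window, which those of Rpl4 and Rps12 reach, so these may be longer.
Rpl4, chr9:64173372-64173401, plus strand: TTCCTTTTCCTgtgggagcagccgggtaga
Rps24, chr14:24490663-24490692, plus strand: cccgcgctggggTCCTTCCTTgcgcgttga
Rps12, chr10:23787195-23787224, minus strand: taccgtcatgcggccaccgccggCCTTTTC
Rps2, chr17:24720048-24720077, plus strand: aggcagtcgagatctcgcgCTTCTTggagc
Rpl22l1, chr3:28805493-28805522, plus strand: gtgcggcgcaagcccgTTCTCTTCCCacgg
Rpl3l, chr17:24727811-24727840, plus strand: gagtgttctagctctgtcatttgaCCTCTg
Rpl4, Rps24 and Rpl22l1 had runs of 11, 9 and 10 bases, while Rps12, Rps2 and Rpl3l had 7, 6 and 5 bases in this window. Over the whole window and on both strands, CCGGAAG was found in 39.7% of the members and 9.93% of all genes, and TCTCGCGA in 17.5% and 1.13%. TATAAA was found in 12.7% of the members and 15.7% of all genes, CACGTG in 9.52% and 8.09%, and CANNTG, which includes CACGTG, in 52.4% and 75.0%. Of these motifs Rpl3l held CANNTG alone. Where the annotated start differs from the start used in the heart, the windows differ too.

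The other genes of translation were set beside the members. Of 80 tested genes of mitochondrial ribosomal proteins, which serve the separate ribosomes of mitochondria, 0 were called higher and 60 lower (limma, 75.0%, against 12.6% of all genes), with a median log2 fold change of -0.23. At an unadjusted p under 0.05, 0 were higher and 63 lower, and by Wilcoxon tests 0 were higher and 56 lower. Mrpl14 fell from 85.1 ± 13.4 to 57.1 ± 9.27 FPKM (log2 fold change -0.57, adjusted p = 7.1e-05), and Mrpl28 from 96.9 ± 14.5 to 66.9 ± 11.8 FPKM (-0.54). Those with the smallest called changes were Mrps25 at -0.14 and Mrpl17 at -0.12. The cytoplasmic members, with 12 higher and 4 lower of 83, did not share this pattern of calls, and the difference between the lists was not tested.

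Of 60 genes of ribosome biogenesis, which process ribosomal RNA and assemble the subunits, 15 were called higher (25.0%, against 20.9% of all genes) and 7 lower (11.7%, against 12.6%), with a median of 0.04. Npm1, a nucleolar chaperone, rose from 64.5 ± 8.23 to 90.3 ± 17.9 FPKM (log2 fold change 0.46), and Taf1d, a factor of ribosomal RNA transcription, rose by 0.41. Rrp9 fell by 0.28 and Polr1a, the largest subunit of the polymerase that makes ribosomal RNA, fell by 0.19 on the log2 scale. Of 46 translation factors, 19 were called higher (41.3%, against 20.9% of all genes) and 1 lower (2.17%, against 12.6%), with a median of 0.08. Pabpc1, which binds the poly(A) tail, rose from 80.2 ± 10.5 to 122 ± 17.5 FPKM (0.60), and the elongation factor Eef1a1 from 688 ± 157 to 1021 ± 257 FPKM (0.57). Its paralog of muscle and nerve, Eef1a2, was the factor called lower, at 844 ± 114 against 963 ± 84.3 FPKM (-0.20, adjusted p = 0.0286). Of the called factors Eif3c had the smallest rise, at 0.11.

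Of 17 genes of growth signaling to ribosomes, 4 were called higher (23.5%, against 20.9% of all genes) and 3 lower (17.6%, against 12.6%). Eif4ebp1, a repressor of translation that mTOR inactivates, rose from 78.0 ± 14.3 to 120 ± 22.6 FPKM (log2 fold change 0.61, adjusted p = 6.4e-05). Its paralog Eif4ebp2 fell from 34.2 ± 1.91 to 30.3 ± 2.07 FPKM (-0.17, adjusted p = 0.00183). The S6 kinase genes Rps6kb1 and Rps6kb2 rose by 0.22 and 0.17, and Myc by 0.64 (adjusted p = 0.0462), while Rptor and Tsc2 fell by 0.12 and 0.14 on the log2 scale. The difference of Myc was 1.42 and 1.26 in samples 7 to 9 and 10 to 12 and -0.09 and -0.03 in samples 1 to 3 and 4 to 6. Mtor had 13.9 ± 1.43 FPKM in the ANG II group and 14.1 ± 1.34 in the control group, and Larp1, which binds TOP messenger RNAs, had 27.0 ± 2.10 and 26.9 ± 2.25 FPKM.

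**Figure D5:**
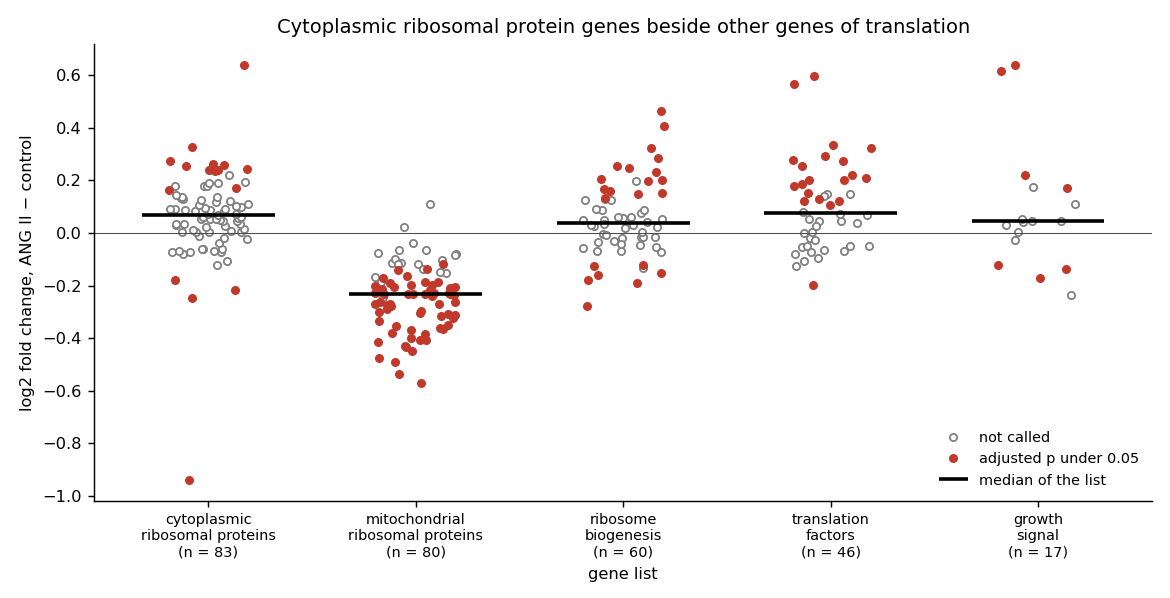
Log2 fold change (ANG II minus control, y axis) of each gene of the cytoplasmic ribosomal proteins and of the 4 other lists (x axis), filled where the adjusted p was under 0.05, with the median of each list as a black line. The median of the mitochondrial list is at -0.23 and that of the cytoplasmic list at 0.07.

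Markers of cell types moved between the groups as well. Of 12 cardiomyocyte genes, 0 were called higher and 8 lower by limma and by Wilcoxon tests, and 0 were higher at an unadjusted p under 0.05. Their summed FPKM ranged from 48518 to 71623 in the ANG II group, against 64327 to 86049 in controls. All 10 macrophage genes were called higher, with sums of 372 to 1083 against 276 to 623 FPKM, and 7 of 10 fibroblast genes were, with sums of 839 to 3019 against 200 to 1201 FPKM. All 5 red blood cell genes were called higher, with sums of 779 to 6443 against 92.2 to 2949 FPKM, as were 7 of 8 proliferation genes, with sums of 13.6 to 35.2 against 5.21 to 13.0 FPKM. Of 4 smooth muscle genes 2 were called higher, and of 7 endothelial and 7 tested lymphocyte genes 1 was called higher and 1 lower in each list. Of the 3 atrial genes 0 were called, and 0 had an unadjusted p under 0.05. The part of these cell types, atrial tissue included, in the changes of Rpl3, Rpl3l and the other members was not tested.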

How the data were processed

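Oligo(dT)-selected RNA of 24 left ventricles, 12 per group, was sequenced. The authors deposited 1 FPKM value per gene and sample, and since negative values occur the values were treated as a score, FPKM that had been adjusted in 4 sets of samples by a step not named in the sources used here. The submitters' processing notes name HISAT, Bowtie2 and RSEM, and the genome build is not given in the sources used here. The sets were found from exact ties, of which pairs of samples shared 215 to 541 within a set and 0 between sets. The study used 16 mice per group, and 4 per group were not analysed here.

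Negative values were set to 0, 14026 genes with a mean of 0.1 or more were kept (all 83 members among them), and log2(FPKM + 1) was fitted with limma 3.58.1 (trend, R 4.3.3) over all kept genes with Benjamini-Hochberg adjustment. Fold changes on this scale understate those of low genes. All tests were two-sided. The differences before the adjustment were recovered with a model that scaled and shifted each gene in each set around a group difference common to the sets. This model had a single solution for 75 of the 83 members, so the adjustment was read as using the group labels. The limma, Wilcoxon, permutation and F tests were run on the adjusted values and do not account for this use. Python 3.11.15 with scipy 1.17.1 was used for the rest. The fit was tested on simulated data. The members and gene lists were chosen with earlier results of these data known. Named genes are members, paralogs, fusion genes, and of each other list of translation genes the 2 highest and 2 lowest called, with all growth signaling genes allowed. Atrial genes and Col1a1 were named after their values were seen. Because nothing says which mice shared a batch, p-values measure the spread between these samples, as left after the adjustment in the sets. Alternatives tried were 0.1 as the pseudocount, all genes unfiltered, a mean of 1 or more, 3 scalings (median-ratio, quantile, equal sums), no trend, Wilcoxon tests, the set or the replicate number as a term, leaving out each set, and for the share of members the tested genes only or all but the 10 highest genes.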

Additional observations from a re-analysis of the deposited data

How the results depend on the processing

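The log2 fold changes of Rpl3 and Rpl3l and the log2 ratio of the pair kept their direction and stayed past the threshold under every alternative run. All of these runs started from the adjusted values. The highest adjusted p was 0.00466 for Rpl3 and 0.00294 for Rpl3l. The median of the members ran from 0.014 without samples 7 to 9 (all genes 0.078) to 0.140 with equal sums (all genes 0.121). With median-ratio scaling it was 0.0202 (all genes 0.0219). The spread between samples, 0.158, is larger than the median of 0.070 itself, so it cannot show that the median is stable. The group difference in the share of summed FPKM was 0.446 percentage points (spread 0.414). It ran from 0.290 without samples 7 to 9 to 0.599 without samples 1 to 3. Counts of calls moved more, and the causes were not tested. With quantile normalization, 26 members and 5 biogenesis genes were higher, and 2 translation factors were lower. With equal sums, 35 members and 1 mitochondrial gene were higher, and 1 biogenesis gene and 0 translation factors were lower. Wilcoxon tests left 2 members and 0 translation factors lower, with 11.4% of all genes lower. The set as a term left 2 members lower, with 10.9% of all genes lower. Without samples 1 to 3, 21 members and 1 mitochondrial gene were higher. Without samples 4 to 6, 4 members and 9 biogenesis genes were higher, and 2 members, 4 biogenesis genes and 0 translation factors were lower. Without samples 7 to 9, 5 members were higher and 1 biogenesis gene was lower. Without samples 10 to 12, 4 biogenesis genes and 12 translation factors were higher, and 1 member and 0 translation factors were lower. In that run 15.8% of all genes were called higher and 9.44% lower. The adjusted p alone gave 16 members in place of the 2 that met both criteria.

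Samples of both groups share the numbers 1 to 12, but the deviations of same-numbered samples correlated from -0.557 to -0.001. These adjusted values thus gave no sign that the numbers pair the samples, but they cannot exclude a pairing. With the replicate number as a block, 7 members were higher and 1 was lower. In that run 8 biogenesis genes were higher and 3 lower, and 0 translation factors were lower. Calls also fell over all tested genes, to 11.3% higher and 8.83% lower with the block, from 20.9% and 12.6% without it. For the ratio of the pair the block gave p = 0.000977 (exact sign-flip permutation test over 12 pairs). How many fragments lie behind each sample is not known, so no counting error can be given for a level such as the 0.231 FPKM of Rpl32l.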

Other observations

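The members varied together between samples of a group. With the means of each group and set removed, the median correlation over 3321 pairs of 82 members (Rpl32l left out) was 0.741, and 78 members correlated at over 0.5 with the mean of the others. Rpl3l, at -0.30, was the member with a negative value, and Rpl22l1 (0.0046), Rpl5 (0.33) and Rps6 (0.35) were low, while Rpl3 was at 0.75. These are descriptions over 24 samples that share library and scaling.

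Rps2 and Rpl3l, both called lower, lie on the same strand of chromosome 17 with 5890 bases and 1 protein coding gene between them (GENCODE vM21).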
